A study of Homo sapiens with 4 samples.

Results

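The genes followed here are the receptors, adaptors and transcription factors of insulin and IGF signalling in TPC1 cells, a human papillary thyroid carcinoma line that carries a CCDC6-RET fusion. They were taken by name and comprise the receptors INSR, IGF1R and IGF2R, the adaptors IRS1 and IRS2, the PI3K regulators PIK3R1 and PIK3IP1, and the transcription factors FOXO1, FOXO3 and FOXO4. These are 10 of the 20372 genes in the deposited count table, and 10 of 10 were among the 12876 genes with enough reads to be tested. RNA of the whole cell population was sequenced from TPC1 cells grown in DMEM with 10% FBS and exposed to BLU6864, a selective RET inhibitor, for 6 h (BLU6H, 2 libraries) or 24 h (BLU24H, 2 libraries). The labels give the dose as 100 µM, and the methods describe treatment of TPC1 cells at 100 nM. All 4 libraries received the inhibitor and untreated libraries were not analysed here, so the effect of longer exposure and that of longer time in culture cannot be told apart. The 24 h libraries carry the words "re-analysis" in their titles and the 6 h libraries do not, so any difference that goes with that mark cannot be told apart from time. TPC1 is 1 cell line, and the labels do not say whether the 2 libraries of a time point came from separate cultures, so the P values measure the spread between these libraries, which may be technical.

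Insulin binds the insulin receptor, and IGF1 and IGF2 bind the IGF1 receptor, both of them tyrosine kinases that phosphorylate IRS adaptors at the membrane. Phosphorylated IRS proteins recruit class I PI3K through its regulatory subunit, and the lipid made by PI3K activates AKT. AKT phosphorylates FOXO transcription factors, which then leave the nucleus, and nuclear FOXO factors drive genes of growth arrest, cell death, stress defence and, in a known feedback, of the receptors and adaptors themselves.

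The libraries held 23917056 to 27457040 counts on genes. The biological coefficient of variation was 0.0521, and Spearman correlations between libraries over the genes tested were 0.998 within each time point and 0.9381 to 0.9406 between them. The thyroid transcription factor PAX8 had 19124 to 22978 counts in every library, whereas NKX2-1 and TSHR, which also mark thyroid follicular cells, were at 0 in all 4. FOXE1, a thyroid transcription factor, rose from 273 and 279 counts at 6 h to 462 and 556 at 24 h (adjusted P = 1.372e-07), and TG, thyroglobulin, fell from 186 and 245 to 98 and 111 (adjusted P = 2.766e-07). HHEX did not pass the test, and SLC5A5 had at most 7 counts. Markers of dividing cells moved strongly between the times: 8 of 8 were lower at 24 h, by a median of -4.26 on the log2 scale, and their summed normalised count was 45642 to 46363 at 6 h and 4039 to 4051 at 24 h. Of the white blood cell markers, 5 of 8 (LYZ, CD52, TYROBP, CD3E and MS4A1) had at most 3 counts in any library, and their list summed to 64.3 to 68.0 at 6 h and 98.6 to 101.2 at 24 h, most of it CD14. Fibroblast markers summed to 604.5 to 623.6 at 6 h and 245.1 to 291.0 at 24 h, with 3 of 6 (COL1A2, COL3A1 and DCN) at most at 3 counts. The endothelial list summed to 506.6 to 541.9 at 6 h and 26.3 to 47.8 at 24 h, nearly all of it KDR, and its defining marker CDH5 had at most 1 count. Epithelial markers summed to 2981.8 to 3115.5 at 6 h and 3333.0 to 3351.5 at 24 h. KRT7 and KRT18 were higher at 24 h and KRT19 lower, KRT8 did not pass, and EPCAM and CDH1 had at most 11 counts in any library. In bulk RNA, fewer cells of a type and less RNA per cell cannot be told apart, and the part these shifts have in the results on the insulin and IGF genes was not tested.

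Between 6 h and 24 h the receptor IGF1R and the adaptors IRS1 and IRS2 rose, PIK3R1 rose by less, and PIK3IP1 and FOXO1 fell. INSR, FOXO3 and FOXO4 did not pass the test. IGF2R passed it narrowly, with overlapping libraries. In the quasi-likelihood test of edgeR, at an adjusted P under 0.05 (Benjamini-Hochberg over all genes tested), 5 of the 10 genes were higher at 24 h and 2 were lower, beside 33.0% of all genes tested that were higher and 32.6% that were lower. The methods set a cutoff for lower genes, a log2 fold change under -0.5 with P under 0.01, which was applied here to P before adjustment and extended to rises over 0.5. With these stricter cutoffs, 2 genes were higher (IGF1R and IRS1) and 2 were lower (FOXO1 and PIK3IP1), against 17.4% and 17.7% of all genes. In 4 genes (IGF1R, IRS1, IRS2 and PIK3R1) both 24 h libraries lay above both 6 h libraries and in 2 (FOXO1 and PIK3IP1) below, which was true of 41.0% and 40.8% of all genes. With 10 genes, these counts by themselves do not set the pathway apart from other genes. The median change on the log2 scale was 0.15 over the 10 genes and 0.0029 over all genes. Normalised counts below are raw counts divided by the relative library size after TMM scaling, errors are SD with n = 2, and log2 fold changes are 24 h minus 6 h with their SE.

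**Figure D1:**
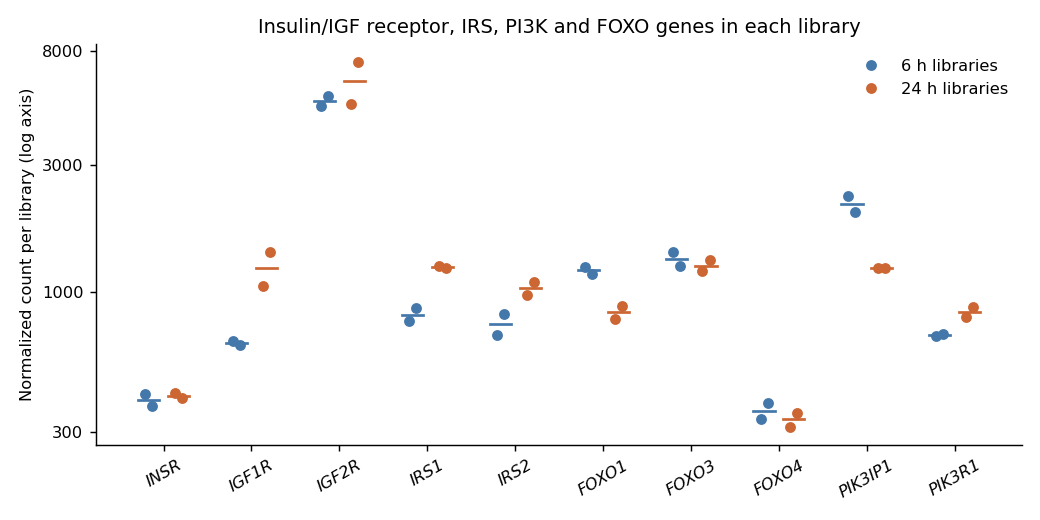
Normalised counts of the 10 insulin and IGF pathway genes in each of the 4 libraries on a log axis, with points for libraries and bars for the mean of each time point. The 24 h points of IGF1R, at 1057 and 1417, stand above its 6 h points, at 657 and 634, and those of PIK3IP1, at 1232 and 1235, stand below its 6 h points, at 2291 and 2004.

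The promoters of IGF1R and PIK3IP1, which rose and fell most among the 10 genes, differed in base composition and in the motifs they held, and they are shown for that reason. RefSeq promoters (GRCh38.p14, 250 bases before to 50 bases after each start) were matched for 10 of the 10 genes, 17 promoters in all. The letters GTAAACA, or TGTTTAC on the other strand, which FOXO factors bind, were searched in 35116 promoters and stood in 3.42% of them. Among the genes described here they stood in 2 promoters, one of FOXO4 and one of PIK3IP1, both downstream of the start. The 30 bases around each match are printed 5′ to 3′ with the match in capitals, for FOXO4 at chrX:71095863-71095892 on the plus strand, where the match begins 24 bases after the start, and for PIK3IP1 at chr22:31292454-31292483 on the minus strand, where it begins 17 bases after the start.
FOXO4: cccggcgagtgGTAAACAgagacgtcagga
PIK3IP1: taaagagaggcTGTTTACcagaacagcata
The GC box GGGCGG, or CCGCCC on the other strand, a site for SP family factors, was chosen for the search after the sequences had been seen. It stood in 44.95% of all promoters, in 11 of the 17 promoters and in 8 of the 10 genes, PIK3IP1 and FOXO4 being those without it. The 250 bases upstream of the start are given for IGF1R at chr15:98648289-98648538 on the plus strand, with GC boxes in capitals, and for a PIK3IP1 start at chr22:31292489-31292738 on the minus strand, which has none.
IGF1R: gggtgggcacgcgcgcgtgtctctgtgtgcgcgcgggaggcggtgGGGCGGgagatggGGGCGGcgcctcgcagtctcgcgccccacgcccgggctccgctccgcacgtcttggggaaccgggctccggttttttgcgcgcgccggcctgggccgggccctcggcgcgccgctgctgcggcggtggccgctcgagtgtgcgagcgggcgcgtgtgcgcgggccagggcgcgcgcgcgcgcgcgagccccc
PIK3IP1: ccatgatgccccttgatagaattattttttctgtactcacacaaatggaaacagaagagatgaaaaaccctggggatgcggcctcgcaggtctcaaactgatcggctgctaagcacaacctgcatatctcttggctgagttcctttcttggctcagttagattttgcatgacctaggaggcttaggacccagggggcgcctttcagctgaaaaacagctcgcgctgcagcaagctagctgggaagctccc
Of the IGF1R promoter 79.7% was G or C, against 48.3% and 49.7% of the PIK3IP1 promoters and a median of 58.7% over all promoters. A match of letters describes the sequence and is no evidence of binding in these cells.

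The receptors did not move together. IGF1R, the receptor tyrosine kinase for IGF1 and IGF2 (ENSG00000140443, hg19 chr15:99192200-99507759), had normalised counts of 657 and 634 at 6 h against 1057 and 1417 at 24 h. Both 24 h libraries were well above both 6 h libraries, and the 24 h libraries also stood further apart from each other than those at 6 h. The mean went from 646 ± 16.5 to 1237 ± 254, a log2 fold change of 0.94 (SE 0.100, 95% confidence interval 0.73 to 1.15, 1.917-fold) with an adjusted P of 6.014e-09. Leaving out single libraries gave 0.72 to 1.14, and the lowest value came without the second 24 h library. IGF1R stood at percentile 92.0 of the log2 fold changes of all genes.

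INSR, the insulin receptor (ENSG00000171105, chr19:7112266-7294045), is the closest relative of IGF1R and can pair with it in hybrid receptors. Its normalised counts were 417 and 377 at 6 h and 419 and 402 at 24 h, so the 2 times overlapped. The means were 397 ± 28.0 and 411 ± 12.4, and the log2 fold change of 0.05 (SE 0.0989, adjusted P = 0.665) had an interval of -0.15 to 0.25. This interval lies below that of IGF1R, and the difference between their changes was not tested itself.

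IGF2R, the mannose 6-phosphate receptor that takes up IGF2 for breakdown and has no kinase (ENSG00000197081, chr6:160390131-160534539), had 5000 and 5438 normalised counts at 6 h and 5084 and 7269 at 24 h. One 24 h library lay between those at 6 h and the other lay far above them. The log2 fold change was 0.24 (SE 0.102, interval 0.03 to 0.45) with an adjusted P of 0.03908. It turned to -0.031 (adjusted P = 0.801) without the second 24 h library and rose to 0.4852 without the first. The call was also lost with DESeq2 (0.24, adjusted P = 0.4689) and without the first 6 h library (0.18, adjusted P = 0.195), so the direction of IGF2R rests on 1 library. The 24 h libraries differed by 0.516 on the log2 scale for IGF2R and by 0.422 for IGF1R, which stood at percentiles 95.4 and 93.6 of such gaps among all genes tested. Both transcripts are long, and genes with transcripts longer than 8000 bases had a median gap of 0.0399 in the same direction, against -0.0005 over all genes with a length. Of the other genes described here with transcripts that long, IRS2 had a gap of 0.163, INSR of -0.062 and IRS1 of -0.02. The part that length has in the gaps of IGF1R and IGF2R was not tested.

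**Figure D2:**
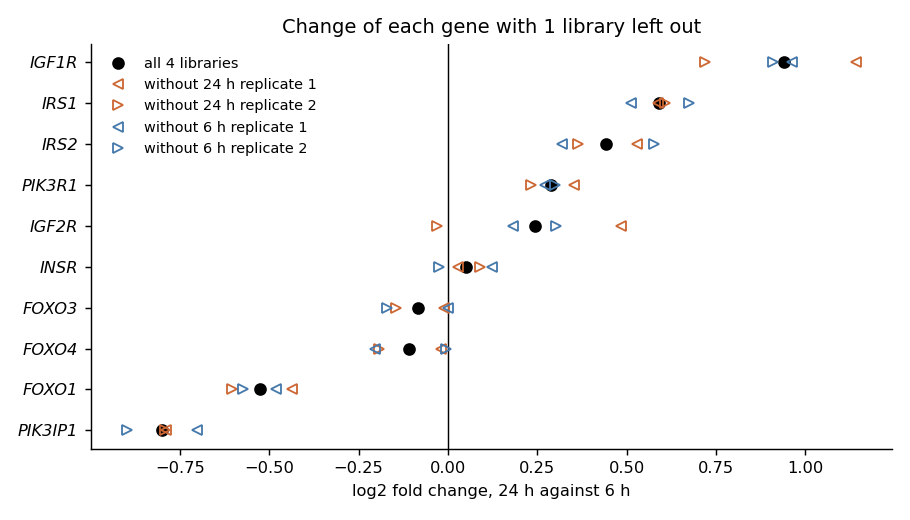
Log2 fold changes of the 10 genes, 24 h minus 6 h, with all 4 libraries and after removal of each library. IGF2R crosses 0 without the second 24 h library (-0.031), whereas IGF1R stays between 0.72 and 1.14.

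Both IRS adaptors rose. IRS1, the docking protein that carries the signal of IGF1R and INSR to PI3K (ENSG00000169047, chr2:227596033-227664475), had 779 and 874 normalised counts at 6 h and 1255 and 1238 at 24 h. The 24 h libraries were nearly equal and lay above both at 6 h. Its mean went from 827 ± 66.9 to 1247 ± 12.4, a log2 fold change of 0.59 (SE 0.0793, interval 0.43 to 0.75, 1.506-fold, adjusted P = 3.164e-07), and the alternatives gave 0.51 to 0.67.

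IRS2, the second widely expressed adaptor and a known FOXO target in liver (ENSG00000185950, chr13:110406184-110438915), had 694 and 831 normalised counts at 6 h and 978 and 1096 at 24 h. Its libraries were also separate by time, with more spread within each time than for IRS1 at 24 h. The mean went from 762 ± 96.7 to 1037 ± 83.0, a log2 fold change of 0.44 (SE 0.0891, interval 0.26 to 0.62, 1.358-fold, adjusted P = 1.053e-04). This is under the stricter cutoff of 0.5. Leaving out single libraries gave 0.3191 (without the first 6 h library) to 0.5754 (without the second 6 h library), and the call at an adjusted P of 0.05 was kept each time.

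The regulators of PI3K moved in opposite directions. PIK3R1 encodes p85alpha, the regulatory subunit that binds phosphorylated IRS proteins and holds the catalytic subunit (ENSG00000145675, chr5:67511548-67597649), and it had 687 and 701 normalised counts at 6 h and 812 and 882 at 24 h. The 24 h libraries were above both at 6 h. The mean went from 694 ± 10.4 to 847 ± 49.3, a log2 fold change of 0.29 (SE 0.0833, interval 0.12 to 0.46, 1.22-fold, adjusted P = 0.003838), and adjusted P reached 0.04644 at most in the alternatives.

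PIK3IP1 encodes a transmembrane protein that binds the catalytic subunit of PI3K and inhibits it (ENSG00000100100, chr22:31677579-31688520), and its normalised counts were 2291 and 2004 at 6 h and 1232 and 1235 at 24 h. The 24 h libraries were nearly identical and far below those at 6 h. The mean went from 2147 ± 203 to 1234 ± 1.77, a log2 fold change of -0.80 (SE 0.0754, interval -0.95 to -0.64, adjusted P = 5.714e-10), which leaves 0.5749 of the 6 h level. The alternatives gave -0.90 to -0.70, and PIK3IP1 stood at percentile 11.2 of the log2 fold changes of all genes.

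Of the FOXO factors among the 10 genes, FOXO1 fell and the other 2 did not pass the test. FOXO6, which is not among the 10, rose at low raw counts, 8 and 7 at 6 h and 17 and 17 at 24 h (log2 fold change 1.12, SE 0.442). FOXO1, which drives genes of gluconeogenesis and growth arrest when AKT is inactive (ENSG00000150907, chr13:41129804-41240734), had 1249 and 1173 normalised counts at 6 h and 792 and 890 at 24 h. Both 24 h libraries lay below both 6 h libraries. The mean went from 1211 ± 53.5 to 841 ± 69.6, a log2 fold change of -0.52 (SE 0.0805, interval -0.69 to -0.36, 0.6951 of the 6 h level, adjusted P = 2.609e-06). It lies close to the stricter cutoff and was under it in size without the first 24 h library (-0.4354).

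FOXO3, the relative best known for driving cell death and stress defence genes (ENSG00000118689, chr6:108881038-109005977), had 1415 and 1260 normalised counts at 6 h and 1202 and 1319 at 24 h, and the times overlapped. Its log2 fold change was -0.08 (SE 0.0774, interval -0.24 to 0.07, adjusted P = 0.3461). A near-identical copy of FOXO3 lies elsewhere in the genome, and how reads that match both were counted is not given in the sources used here, so its level is uncertain. FOXO4, an X-linked member of the family (ENSG00000184481, chrX:70316047-70323385), had 336 and 386 normalised counts at 6 h and 315 and 355 at 24 h, again with overlap. Its log2 fold change was -0.11 (SE 0.108, interval -0.33 to 0.11, adjusted P = 0.3833). The interval of FOXO1 ends at -0.36, below the lower ends of those of FOXO3 and FOXO4, and the difference between the 3 changes was not tested itself.

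**Figure D3:**
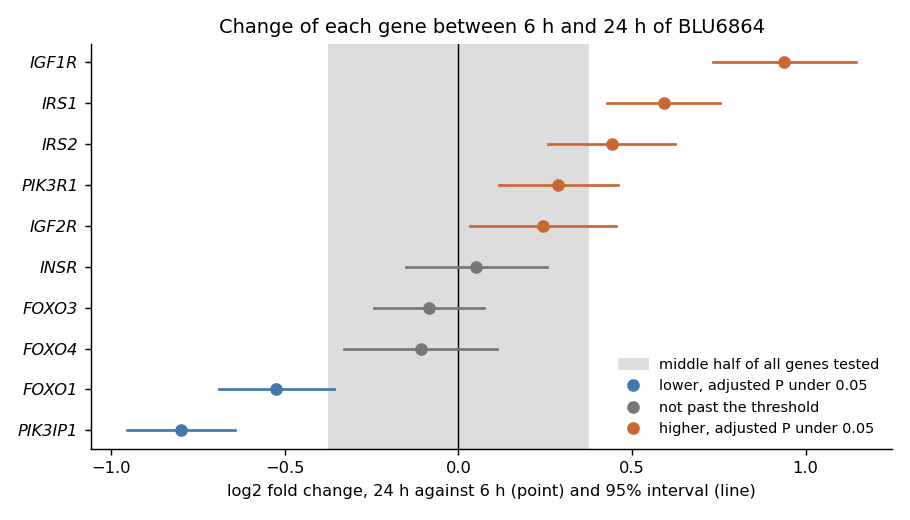
Log2 fold changes of the 10 genes, 24 h minus 6 h, as points with 95% confidence intervals from edgeR, beside a band for the middle of the distribution of all genes tested, from quartile to quartile (-0.374 to 0.373). IGF1R (0.94), IRS1 (0.59) and IRS2 (0.44) lie to the right of the band, PIK3IP1 (-0.80) and FOXO1 (-0.52) to the left, and PIK3R1, IGF2R, INSR, FOXO3 and FOXO4 inside it.

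Levels were compared between genes per length, as RPKM over the longest coding transcript of each gene. At 6 h PIK3IP1 was highest, at 33.9 ± 3.20 RPKM, followed by IGF2R at 14.2 ± 0.841, FOXO1 at 8.01 ± 0.354 and FOXO3 at 6.997 ± 0.575, each separate from the next in both libraries. PIK3R1 (3.80 RPKM), FOXO4 (3.78), IRS2 (3.57) and IRS1 (3.23) followed, and neighbours among these 4 overlapped. IGF1R, at 2.02 ± 0.0514, and INSR, at 1.60 ± 0.113, were lowest and separate from each other. At 24 h the leading pair was PIK3IP1, at 19.5 ± 0.0280 RPKM, and IGF2R, at 16.8 ± 4.20, whose libraries overlapped. FOXO3 (6.59) stood above FOXO1 (5.57), the reverse of their order at 6 h. IRS2 (4.86) overlapped with IRS1 (4.88) and with PIK3R1 (4.64), while both libraries of IRS1 lay above both of PIK3R1. IGF1R (3.87) overlapped with FOXO4 (3.51), and INSR (1.66) was lowest. The order of genes depends on which transcript is counted: over merged exons PIK3R1 had 1.63 RPKM at 6 h and PIK3IP1 21.6, whereas a ratio between libraries of 1 gene does not change with its length.

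Ratios of RPKM within a library show the shifts between relatives without any scaling between libraries. The ratio of IGF1R to INSR was 1.22 and 1.301 at 6 h and 1.949 and 2.727 at 24 h. The ratio of IGF2R to IGF1R went the other way, from 6.618 and 7.462 to 4.185 and 4.464. In this ratio the 24 h libraries lie close together, although each of the receptors differed between them. FOXO3 was at 0.896 and 0.849 of FOXO1 at 6 h and at 1.2 and 1.171 of it at 24 h, and FOXO1 made up 43.06% and 42.19% of the summed FOXO RPKM at 6 h and 35.34% and 35.67% at 24 h. The summed RPKM of the 3 factors was 19.19 and 18.4 at 6 h and 14.83 and 16.52 at 24 h. The sum of IRS1 and IRS2 was 6.304 and 7.314 at 6 h and 9.498 and 9.98 at 24 h, while their ratio, 0.9373 and 0.8781 against 1.071 and 0.9429, moved little. PIK3IP1 was 9.617 and 8.237 times PIK3R1 at 6 h and 4.375 and 4.037 times at 24 h. Libraries of the 2 times were separate in each of these ratios and sums, narrowly so for IRS1 over IRS2. They were also separate for FOXO1 over FOXO4 (2.346 and 1.918 at 6 h, 1.586 and 1.581 at 24 h). For FOXO3 over FOXO4 they overlapped (2.102 and 1.629 at 6 h, 1.903 and 1.851 at 24 h). Of single genes tested, 41.0% were separate upward and 40.8% downward, and no such share was obtained for ratios. No test was made of ratios, since 2 libraries against 2 cannot reach a P of 0.05 in an exact permutation test.

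**Figure D4:**
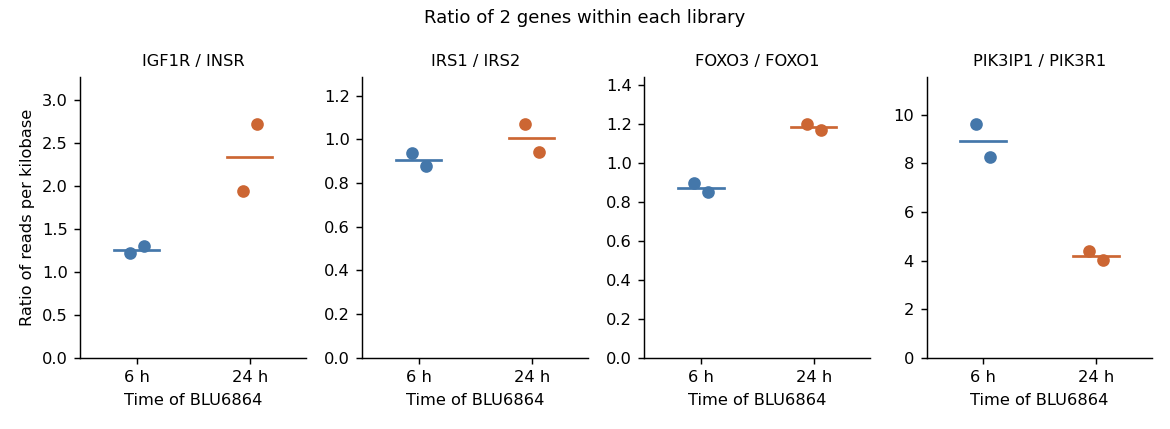
Ratios of RPKM between pairs of the genes in each of the 4 libraries, with points for libraries and bars for their mean, on linear axes that start at 0. IGF1R over INSR is higher in both 24 h libraries (1.949 and 2.727) than at 6 h (1.22 and 1.301), and PIK3IP1 over PIK3R1 is lower (4.375 and 4.037 against 9.617 and 8.237).

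Few reads were counted on ligands of these receptors, and the proteins that bind and release IGFs changed strongly in both directions. INS and IGF2 overlap in position with another entry, INS-IGF2. How reads shared between such entries were counted is not given in the sources used here. Low counts of INS and IGF2 therefore do not show low expression. INS was at 0 in all 4 libraries and IGF1 had at most 1 count, while IGF2 had raw counts of 156 and 183 at 6 h and 96 and 108 at 24 h (log2 fold change -0.78, SE 0.148, adjusted P = 5.031e-05). Of 13 ligands, binding proteins and their proteases, 9 were tested, 3 rose and 5 fell, with a median of -0.78, and IGFBP6 (-0.03) did not pass. The shares were 33.3% higher and 55.6% lower, against 33.0% and 32.6% of all genes. The risers were STC2, an inhibitor of the IGF-releasing protease PAPPA (2.54, SE 0.130, from 76.2 ± 0.604 to 444 ± 14.3 normalised counts), IGFBP4 (1.39, SE 0.0795, from 6908 ± 555 to 18150 ± 16.99) and IGFBP3 (1.07, SE 0.0790, from 8604 ± 524 to 18046 ± 849). Besides IGF2, the genes that fell were IGFBP5 (-4.33, SE 0.207, from 260.5 ± 2.001 to 12.8 ± 0.213), the proteases PAPPA2 (-2.51, SE 0.0944, from 1224 ± 10.1 to 215 ± 16.6) and PAPPA (-1.05, SE 0.227, from 72.3 ± 9.06 to 34.9 ± 4.29), and IGFBP2, with raw counts of 24 and 21 at 6 h and 11 and 5 at 24 h. IGFBP1 and IGFALS had at most 3 counts in any library and were not tested.

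Among partners of the receptors, 15 of 18 were tested and 5 rose, 5 fell and 5 did not pass, with a median of -0.0015. Rises and falls were 33.3% each, against 33.0% and 32.6% of all genes. The risers were SORT1, a sorting receptor (log2 fold change 1.10, SE 0.0860), the adaptor SHC1 (0.64, SE 0.0751), GRB10 (0.55, SE 0.0763) and GRB14 (0.21), which bind and restrain both receptors, and PTPN11, the phosphatase SHP2 (0.40). Among the genes that fell were the docking protein GAB2 (-0.95, SE 0.102), SH2B2 (-0.50, SE 0.153), ENPP1 (-0.27) and the phosphatase PTPN2 (-0.25). GRB2 (-0.14), CBL (-0.16), PTPN1 (-0.0015), SH2B1 (0.07) and GAB1 (0.15) did not pass, and INSRR, GRB7 and IRS4 had too few counts. IRS4 was at 0 in all 4 libraries, so IRS1 and IRS2 were the IRS adaptors detected among these.

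The other PI3K subunits held 9 tested genes of 11, with a median of 0.03. Of these, 3 rose and 2 fell, or 33.3% and 22.2%, against 33.0% and 32.6% of all genes. PIK3C2B, a class II enzyme (1.08, SE 0.0855), and PIK3CB, the catalytic subunit p110beta (0.58, SE 0.0752, from 1273 ± 123 to 1907 ± 23.4 normalised counts), rose, as did PIK3R6, which had raw counts of 2 and 1 at 6 h and 10 and 11 at 24 h. PIK3CG, p110gamma (-1.004, SE 0.129), and PIK3R3, a regulatory relative of PIK3R1 (-0.22, SE 0.0721), fell. PIK3CA (-0.03), PIK3CD (0.10), PIK3C2A (0.02) and PIK3R4 (0.03) did not pass. PIK3R2 was listed with at most 1 count under 2 identifiers whose positions overlap, and PIK3R5 had at most 3 counts. Reads shared by both PIK3R2 identifiers may have been dropped as ambiguous, so these counts do not show that PIK3R2 was absent.

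Among AKT, mTOR and their brakes, 31 of 31 genes were tested, 9 rose, 11 fell and 11 did not pass, with a median of -0.11. Rises made up 29% and falls 35.5%, against 33.0% and 32.6% of all genes. The 3 largest rises were those of INPP4B, a lipid phosphatase that removes the product of PI3K (1.25, SE 0.0742), DEPTOR, an inhibitor of mTOR (0.85, SE 0.0719), and TRIB3, a pseudokinase that binds AKT (0.81, SE 0.0706). The 3 largest falls at a mean of 50 counts or more were those of SGK1, a kinase related to AKT that also phosphorylates FOXO factors (-0.93, SE 0.117), RHEB, the activator of mTORC1 (-0.68, SE 0.0783), and SGK3 (-0.64, SE 0.116). AKT1 (0.05, adjusted P = 0.5493) and AKT2 (0.04, adjusted P = 0.6204) did not pass.

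Of 20 regulators and partners of FOXO factors, 19 were tested, 7 rose, 7 fell and 5 did not pass, with a median of -0.05. That is 36.8% higher and 36.8% lower, near the 33.0% and 32.6% of all genes. The deacetylase SIRT2 (0.56, SE 0.0708), the acetyltransferase CREBBP (0.39, SE 0.0888) and the deubiquitinase USP7 (0.30, SE 0.0699) had the largest rises at a mean of 50 counts or more. YWHAQ, a 14-3-3 protein of the kind that holds phosphorylated FOXO in the cytoplasm (-0.56, SE 0.0757), and the ubiquitin ligases SKP2 (-0.55, SE 0.0903) and MDM2 (-0.41, SE 0.0713) had the largest falls at that level. SFN, another 14-3-3 gene, is below it and fell as well, with raw counts of 26 and 30 at 6 h and 7 and 3 at 24 h. Of the other 14-3-3 genes that passed, YWHAG (0.27, SE 0.0705) and YWHAH (0.25, SE 0.0701) rose and YWHAE (-0.33, SE 0.0776) fell. The genes that did not pass were SIRT1 (-0.05), EP300 (-0.15), PRMT1 (0.16), YWHAB (0.08) and YWHAZ (-0.11).

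Of 37 genes known as FOXO targets, 30 were tested, 5 rose, 16 fell and 9 did not pass. That is 16.7% higher and 53.3% lower, against 33.0% and 32.6% of all genes, and the median was -0.22. TNFSF10, the death ligand TRAIL (1.23, SE 0.0760, from 1245 ± 83.6 to 2911 ± 206 normalised counts), CITED2 (0.93, SE 0.0724), CCND1, cyclin D1 (0.73, SE 0.0709), CAT, catalase (0.47, SE 0.0726), and GADD45A (0.44, SE 0.0928) rose. CCND1 and PLK1 differ from the other genes of the list named here in their known roles. Cyclin D1 is repressed by FOXO factors and PLK1 is a gene of mitosis. The 3 largest falls were those of PLK1, a mitotic kinase (-4.19, SE 0.0877), KLF2 (-2.45, SE 0.122) and BCL2L11, the death protein BIM (-1.53, SE 0.0867, from 1638 ± 35.2 to 565 ± 82.5). PLK1 moved with the markers of dividing cells, of which 8 of 8 were lower, and their part in its fall was not tested. FBXO32 (-1.16), TXNIP (-0.84), SESN1 (-0.83), ERBB3 (-0.79), CDKN1A (-0.53), CCNG2 (-0.41) and CDKN1B (-0.24) also fell. Those that did not pass were SOD2 (0.17), BCL6 (-0.07), GADD45B (-0.14), PRDX3 (-0.08), KLF15 (-0.29), MXI1 (0.0047), PDK4 (0.06), MAP1LC3B (-0.15) and ATG14 (-0.02). Over the 6 lists together, 113 of 130 genes were tested, 32 rose and 46 fell, with a median of -0.11. These are 28.3% and 40.7%, against 33.0% and 32.6% of all genes.

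**Figure D5:**
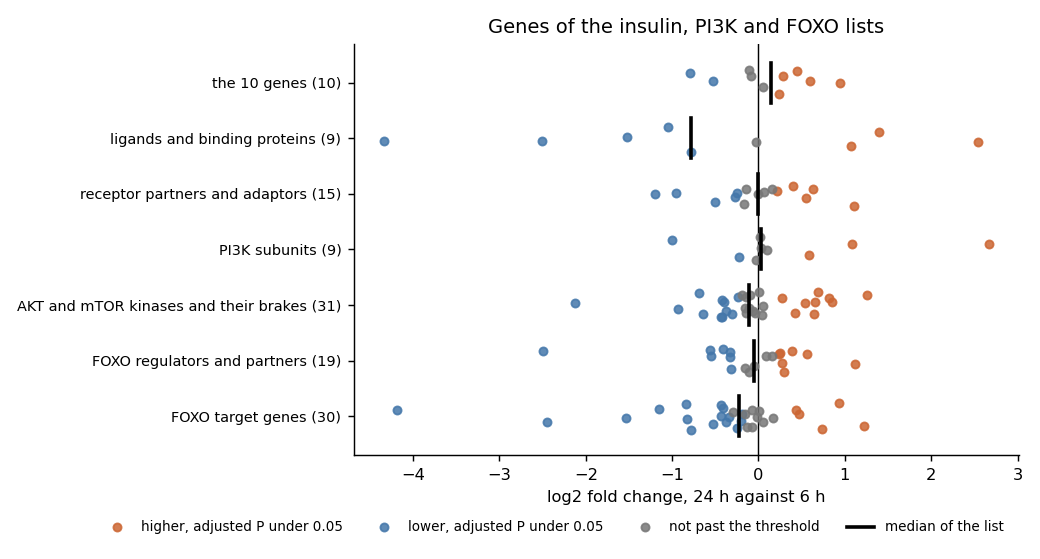
Log2 fold changes, 24 h minus 6 h, of the tested genes of each pathway list as points, coloured by whether they passed an adjusted P of 0.05, with a bar at the median of each list. The FOXO targets have a median of -0.22 with 16 of 30 genes lower (53.3%, against 32.6% of all genes tested). The ligands and binding proteins have a median of -0.78 over 9 genes.

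The genes whose profile over the 4 libraries lay nearest to those of IGF1R and PIK3IP1 were found by the Euclidean distance of centred log2 normalised counts among 10746 genes. Nearest to IGF1R were RTN4RL2, a receptor for myelin-derived inhibitors (distance 0.0394, log2 fold change 0.96), EHD2, a protein of caveolae (0.0981, 0.92), and LIFR, the receptor of LIF (0.116, 0.93). RTN4RL2 had 332 and 319 normalised counts at 6 h and 551 and 716 at 24 h. It was chosen for its nearness to IGF1R, so a like spacing of the 24 h libraries follows from the choice. Nearest to PIK3IP1 were HNRNPH3, an RNA-binding protein (0.0235, -0.78), CXorf57 (0.0264, -0.81) and FCHO2, a protein of clathrin-coated pits (0.0275, -0.79). With 4 libraries in 2 groups such likeness is a description of these libraries and has no test.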

How the data were processed

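Raw counts per gene, which the authors deposited for hg19 from reads aligned with STAR (version 2.3 in the submitters' processing notes), were used for 4 libraries of total RNA made with the TruSeq protocol. The labels describe single-end reads and the methods paired-end reads; the counting program and its strand setting are not given in the sources used here, so antisense and overlapping genes cannot be told apart. The deposited table also holds a normalised signal per library, the count scaled by the authors with DESeq2, and the authors' own fold changes and P values, none of which were used. The number of value columns left unused for want of a sample was 0.

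The insulin and IGF genes, the pathway lists and the markers were chosen with earlier results of these data known. Counts were tested with edgeR 4.0.16 (limma 3.58.1, R 4.3.3): filterByExpr kept 12876 genes holding 99.97% of the counts, 4039 genes had no count, and TMM scaling and the quasi-likelihood test with time as the single factor followed, with Benjamini-Hochberg adjustment. The scripts were tested on simulated data. RPKM used transcript lengths of GENCODE v44, matched by gene identifier for 12566 genes. Genes of each list were named as the 3 largest rises and falls among those with an adjusted P under 0.05 and a mean of at least 50 normalised counts, and singly where a count was 5 or fewer. Genes named beyond this rule (AKT1, AKT2, FOXO6, SFN, YWHAE, YWHAG, YWHAH and the further FOXO targets) were chosen after their values were seen. Some genes counted in the lists are not reported here by name. Nearest profiles were sought among genes with a mean of at least 100. The libraries of 1 time point differed by more than sampling noise (chi-square per degree of freedom 7.654 at 24 h and 10.04 at 6 h) and were counted as separate. Alternatives were DESeq2 1.42.0, upper quartile scaling, scaling by library size alone, testing without a filter, at least 10 counts in every library, a replicate block and leaving out each library.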

Additional observations from a re-analysis of the deposited data

How the results depend on the processing

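At an adjusted P of 0.05, the counts of higher and of lower genes, among the 10 and among all tested, stayed within 1.5 times the values reported under every alternative run. For all genes the higher count lay between 3501 with DESeq2 and 4524 with the replicate block, and the lower count between 3536 with DESeq2 and 4542 with library size alone. By the stricter cutoffs, 1 gene (PIK3IP1) was lower with upper quartile scaling in place of 2, since FOXO1 lies near the cutoff. As single libraries were left out, FOXO1 ranged from -0.6046 to -0.4354 and IRS2 from 0.3191 to 0.5754. Each of these 2 genes therefore lay on either side of the cutoff of 0.5 in size, depending on the library removed. The log2 fold change of IGF2R ranged from -0.031 to 0.4852 as single libraries were left out, turning without the second 24 h library, and its call was also lost with library size alone (adjusted P = 0.09391), upper quartile scaling (0.05404) and at least 10 counts in every library (0.06517). Over all genes, other scalings moved the median on the log2 scale from 0.0029 to -0.0398 (library size alone) and 0.0326 (upper quartile).

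The labels number the libraries 1 and 2 in each time point without saying what a number shares, and same-numbered libraries hardly deviated together (correlation 0.0691), so they were not treated as pairs. With the replicate number as a replicate block, 5 of the 10 genes were higher and 2 lower, as without it, and 4524 and 4448 of all genes were. Fits without a library leave 1 at that time, which is assumed to vary like the other group. The intervals of INSR, FOXO3 and FOXO4 include 0, which does not show that these genes did not change.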
